A study of Canis lupus familiaris with 36 samples.

Results

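The microRNAs (miRNAs) cfa-miR-223, cfa-miR-142, cfa-miR-150 and cfa-miR-342, called miR-223, miR-142, miR-150 and miR-342 below, are known from blood leukocytes, and they were followed here in canine heart tissue with and without hemangiosarcoma (HSA). They were taken by name, with 1 entry per mature miRNA, and are 4 of the 453 mature miRNAs listed for the heart libraries, of which 320 had a read. All 4 had a single entry and passed the filter on low counts. The heart libraries are 6 from cardiac HSA, a malignant tumor of endothelial cells, and 6 from control hearts of dogs that died of non-neoplastic causes. Each is small RNA from a formalin-fixed, paraffin-embedded (FFPE) block of whole tissue from 1 dog of the species *Canis lupus familiaris*. No drug treatment is named in the labels. The paper states that dogs with earlier chemotherapy were not excluded and that dogs with HSA were older than control dogs. Neither age nor chemotherapy was part of the fits below. The titles and the treatment field of the labels name opposite conditions for every heart library, and the titles were followed. The splenic libraries of the series were not analysed here.

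A miRNA is a short RNA that guides silencing complexes to messenger RNAs, and many miRNAs are restricted to a few cell lineages. MiR-223 is the classical myeloid miRNA, abundant in neutrophils and monocytes and also carried by platelets. MiR-142 is present in nearly all leukocytes and is often used as a pan-leukocyte marker. MiR-150 is abundant in mature B and T lymphocytes, where it restrains the transcription factor MYB. MiR-342 is found in lymphocytes and other blood cells and comes from an intron of EVL, a regulator of the actin cytoskeleton, and in the RefSeq gene table of another dog assembly, UU_Cfam_GSD_1.0, its gene MIR342 overlaps EVL. In that table MIR223 overlaps VSIG4, a gene of tissue macrophages, while MIR142 and MIR150 overlap no other gene.

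Total counts per library, after identical entries were merged, were between 6999830 and 11668822 in control and between 2018959 and 8999025 in HSA. The members were counted well above the lowest level that sequencing can show. The lowest count was 75, for miR-223 in control replicate 5, which carries a counting error of 11.5%, and the highest was 12560, for miR-150 in HSA replicate 2. Levels below are CPM, the counts scaled to a common library total, adjusted by edgeR's TMM factors for the composition of each library. Heart muscle miRNAs were read beside the labels, and they do not tell the groups apart in every library. The summed level of 8 of them was 189921 to 271362 CPM in control but 942 to 233009 CPM in HSA. MiR-133a and miR-133c among them had nearly equal counts, so the sum may hold the same reads more than once. The tumor blocks differed widely in muscle miRNA, with HSA replicates 1 and 6 inside the control range and HSA replicate 3 lowest. The endothelial miRNA miR-126, the marker of the tumor's cell of origin, had 944 to 4295 CPM in HSA and 2371 to 4213 CPM in control and was not called.

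The first question was which leukocyte miRNAs differed between HSA and control hearts. The myeloid miR-223 and the pan-leukocyte miR-142 were higher in every tumor than in any control heart. The lymphoid miR-150 was higher on average but only in 4 of the 6 tumors, and miR-342 was not higher. Calls came from edgeR's quasi-likelihood test, adjusted over all tested entries, where a call needs both an adjusted p below 0.01 and a log2 difference of 1 or more in either direction. By this rule 3 of the 4 were called, beside 25.8% of the 225 tested mature miRNAs. All 3 were higher, beside 18.7%, and 0 were lower, beside 7.11%. Over all tested miRNAs this was 42 higher and 16 lower, and it became 68 and 5 with scaling by library size only and 53 and 5 with limma on the deposited CPM. The median log2 fold change was 2.25 over the 4 members and 0.34 over all tested miRNAs. The members and the lists below were chosen with earlier results of these data known, so such shares and medians only describe them. In whole tissue, more cells of a type and more of a miRNA per cell cannot be told apart. P-values of group differences set the difference against the spread between these dogs, and they do not separate the group from age or chemotherapy.

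MiR-223 had 10.9 CPM in the lowest control library, a median of 29.4 CPM and 56.4 CPM in the highest. In HSA its lowest level was 108 CPM, the median 367 CPM and the highest 632 CPM. The groups did not overlap, and the lowest tumor, HSA replicate 5, was still above the highest control library, replicate 3. The fitted log2 difference was 3.58 with a standard error of 0.49 (adjusted p = 0.000879), a fold of 12.0. By size of the adjusted p this miRNA stood at place 2 of the 225, and by fold change at place 16 from the highest.

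MiR-142 had 78.6 CPM in the lowest, 95.3 CPM in the median and 162 CPM in the highest control library. The corresponding levels in HSA were 179, 446 and 939 CPM. The groups again did not overlap, although HSA replicate 1, at 179 CPM, stood close to control replicate 1. All 6 HSA values above all 6 control values were seen for 2 of the 4 members, miR-223 and miR-142, beside 15.1% of all tested miRNAs, and 0 of the 4 had all HSA values below, beside 10.7%. Groups that did not overlap in either direction made up 25.8%. The rise of miR-142 was 2.16 on the log2 scale, with a standard error of 0.42 (adjusted p = 0.00220).

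MiR-150 was the most even of the 4 in control hearts, with 98.8 CPM in the lowest library, a median of 119 CPM and 146 CPM in the highest. It was also the most uneven in HSA, from 86.6 CPM through a median of 455 CPM to 1391 CPM. The coefficient of variation was 14.0% in control and 90.3% in HSA, and the highest tumor had 16.1 times the level of the lowest. HSA replicates 2, 3, 4 and 5, with 1391, 605, 1123 and 305 CPM, exceeded all 6 control libraries. The other two were not higher, since HSA replicate 6 was inside the control range at 113 CPM and HSA replicate 1 below it at 86.6 CPM. The log2 difference of 2.35, with a standard error of 0.61 (adjusted p = 0.00765), was, of the 3 calls among the members, the one that depended most on single libraries. Its adjusted p was above 0.01 without HSA replicate 2, 3 or 4 and without any 1 of the 6 control libraries, at most 0.0306, and over these 9 fits the log2 difference was 1.78 to 2.41.

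MiR-342 had 55.1 CPM in the lowest, 77.4 CPM in the median and 98.0 CPM in the highest control library. In HSA the same 3 levels were 37.1, 63.0 and 75.3 CPM. HSA replicates 1 and 6, both near 37 CPM, were below every control library, and the other 4 tumors were inside the control range. The log2 difference of -0.44, with a standard error of 0.25 (adjusted p = 0.170), was not called. Its sign depended on the scaling, at 0.21 (adjusted p = 0.592) when libraries were scaled by size only and 0.15 (adjusted p = 0.721) with limma.

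**Figure D1:**
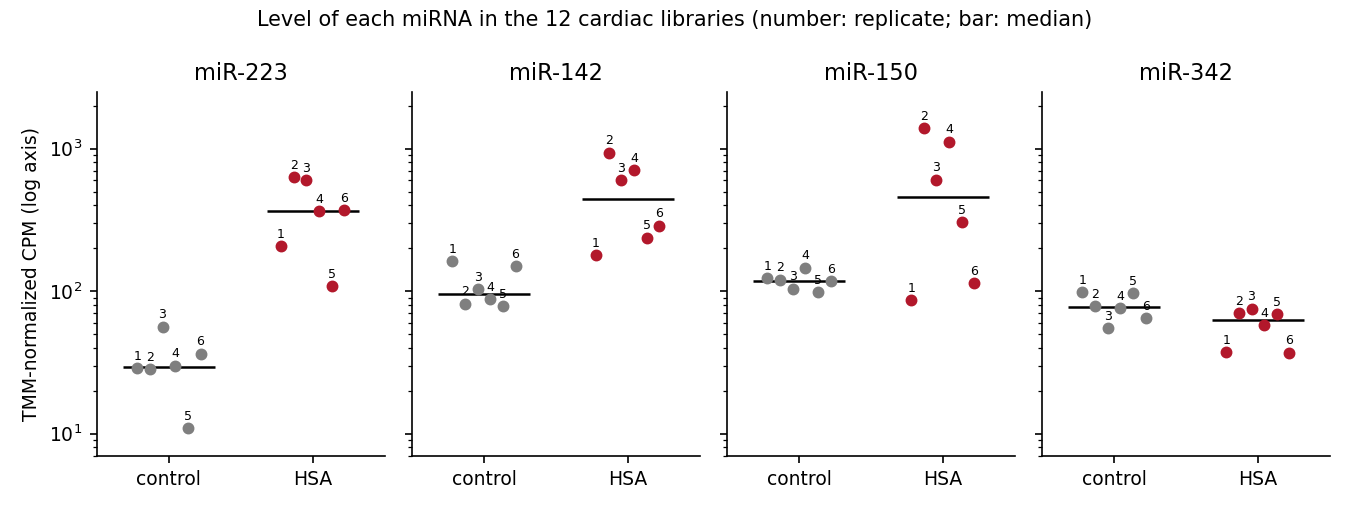
Level of the 4 miRNAs in each cardiac library as TMM-normalized CPM on a log axis, with 1 point per library, the replicate number beside it and a bar at the group median. MiR-223 and miR-142 do not overlap between the groups. For miR-150, HSA replicate 6 sits with the control libraries at 113 CPM and HSA replicate 1 below them at 86.6 CPM.

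The order of the 4 miRNAs also differed between tissues. Counts of mature miRNAs are per molecule and need no length correction, but ligation favors some sequences, so the order is that of counted reads. In control, miR-150 and miR-142 overlapped in range and changed places among libraries, with miR-142 above miR-150 in 2 of 6. MiR-342 was below miR-150 in all 6 control libraries and below miR-142 in 5 of 6, and miR-223 was lowest in 5 of 6. In HSA miR-342 was the lowest of the 4 in every library. Among the 453 listed miRNAs miR-223 had a median rank of 144 in control and 76.5 in HSA, miR-150 of 97.5 and 78, miR-142 of 104.5 and 72.5, and miR-342 of 108 and 138.5. As a share of the reads on the 4 members, miR-142 had a median of 29.9% in control and 32.5% in HSA, and its range was 25.9% to 40.8% in control and 31.0% to 35.6% in HSA. MiR-223 made up 9.40% ± 4.62 (SD, n = 6) in control and 28.4% ± 13.1 (SD, n = 6) in HSA, and miR-342 23.4% ± 6.16 (SD, n = 6) and 5.05% ± 2.84 (SD, n = 6).

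The next question was how myeloid, pan-leukocyte and lymphoid signals stood to each other in each tumor. Each level was divided by the median of the 6 control libraries. HSA replicate 2 had the highest profile, at 21.5 times the control median for miR-223, 9.85 times for miR-142 and 11.7 times for miR-150. In HSA replicate 4 the same 3 miRNAs were at 12.4, 7.40 and 9.46 times, and in HSA replicate 3 at 20.4, 6.33 and 5.09 times. All 3 signals were thus well above control in these tumors. HSA replicate 5 had smaller and nearly level values of 3.69, 2.49 and 2.57 times. HSA replicates 1 and 6 had a different profile, with miR-223 at 7.07 and 12.6 times and miR-142 at 1.88 and 3.02 times the control median, but miR-150 at 0.729 and 0.954 times. In both, miR-342 was at 0.481 and 0.479 times, against 0.743 to 0.973 times in the other 4. The share of miR-150 among the reads of the 4 members was lowest in these 2 tumors, and over all tumors it ran from 14.0% to 49.9%.

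**Figure D2:**
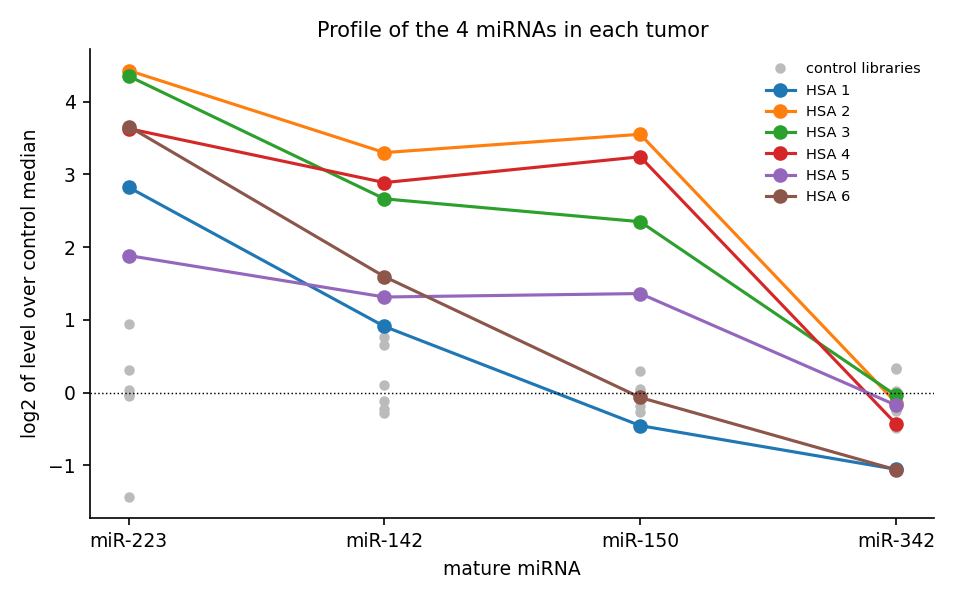
Log2 of the level over the median of the control libraries for miR-223, miR-142, miR-150 and miR-342, with a colored line for each of the 6 tumors and gray points for the control libraries. At miR-150 the line of HSA 1 falls below the control libraries, at -0.46, and that of HSA 6 among them, at -0.07. Those of the other 4 stay between 1.36 and 3.55.

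The muscle and epithelial signals of these libraries are given beside this pattern. HSA replicates 1 and 6, without higher miR-150, had 190256 and 233009 CPM of muscle miRNAs, while HSA replicates 2, 3, 4 and 5 had 21821, 942, 40090 and 94724 CPM. They were also the shallowest and the deepest HSA library, with 2018959 and 8999025 counts. The summed level of 7 epithelial miRNAs, of the miR-200 family with miR-203 and miR-205, was 7.74 to 20.9 CPM in control and 43.2 to 3285 CPM in HSA. It was highest in HSA replicate 5, the tumor with the lowest miR-223. The part of muscle and epithelial content in the leukocyte levels was not tested.

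**Figure D3:**
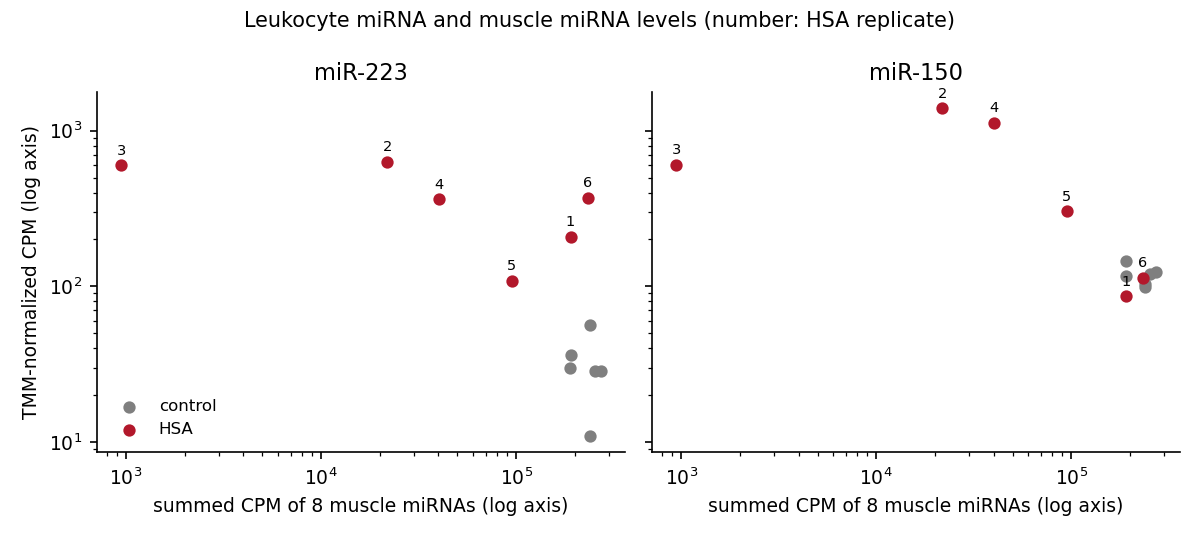
Level of miR-223 (left) and miR-150 (right) against the summed level of 8 muscle miRNAs, both in TMM-normalized CPM on log axes, with 1 point per library and numbers for the HSA replicates. HSA replicates 1 and 6 lie at the muscle level of the control hearts, with miR-223 at 207.6 and 371 CPM. Their miR-150 is below the control libraries in HSA replicate 1 and among them in HSA replicate 6.

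Whether one lineage signal moved more than another was tested with ratios of counts within a library, which no scaling factor changes. For each ratio 0.5 count was added to both miRNAs, and the group means of its log2 were compared with an exact two-sided permutation test, with p-values adjusted over the 10 ratios computed. The smallest p that 6 libraries against 6 allow is 0.00216. The ratios use the same counts as the fold changes above. MiR-223 rose more than each of the other members, and miR-342 fell behind each of them.

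The ratio of myeloid to pan-leukocyte signal, miR-223 to miR-142, had a log2 of -1.88 ± 0.72 (SD, n = 6) in control and -0.35 ± 0.63 (SD, n = 6) in HSA. This difference of 1.54 (standard error 0.39, exact permutation p = 0.00649, adjusted p = 0.0130) was a 2.90-fold higher ratio. For the myeloid to lymphoid ratio, miR-223 to miR-150, the difference was 1.82 (standard error 0.66, exact permutation p = 0.0195, adjusted p = 0.0278). It was above every control library in 3 of the 6 tumors, with the highest values in HSA replicates 6 and 1. Its adjusted p was 0.0557 without any 1 of control replicates 4 and 5 and HSA replicates 1, 3 and 6. The ratio of miR-150 to miR-142 did not differ beyond the spread, at -0.28 (standard error 0.40, exact permutation p = 0.496). Here the 6 tumors split, with HSA replicates 1 and 6 at -1.05 and -1.34, below all control libraries, and the other 4 inside the control range.

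MiR-342 stood apart from the lymphoid miR-150. The log2 ratio of miR-150 to miR-342 was 0.02 to 0.94 in control and 1.21 to 4.30 in HSA, with no overlap. The difference was 2.15 (standard error 0.56, exact permutation p = 0.00216, adjusted p = 0.00541). MiR-342 relative to miR-142 was lower in all 6 tumors than in any control heart, with a difference of -2.43 (standard error 0.39) and the same p-values, and miR-223 relative to miR-342 was higher by 3.96 (standard error 0.59), also with the same p-values.

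The 4 miRNAs were also set against miR-451, the main miRNA of red cells, as the other large cell class of blood. MiR-451 itself had 4938 to 12290 CPM in control and 2131 to 34027 CPM in HSA and was not called (log2 difference 0.81 with a standard error of 0.50, adjusted p = 0.198). The log2 ratio of miR-223 to miR-451 was higher in every tumor than in any control heart, by 3.05 (standard error 0.52, exact permutation p = 0.00216, adjusted p = 0.00541). That of miR-142 to miR-451 was higher by 1.51 (standard error 0.58, exact permutation p = 0.0108, adjusted p = 0.0180), with 4 of the 6 tumors above every control library. For miR-150 the difference of 1.23 (standard error 0.88, exact permutation p = 0.201, adjusted p = 0.238) was within the spread. HSA replicates 1 and 6 were below all control libraries here and the other 4 above them. For miR-342 it was -0.92 (standard error 0.71, exact permutation p = 0.214, adjusted p = 0.238). Without HSA replicate 5, the tumor with the least miR-451, the miR-342 difference was -1.45 (adjusted p = 0.0379 from the same exact permutation test).

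**Figure D4:**
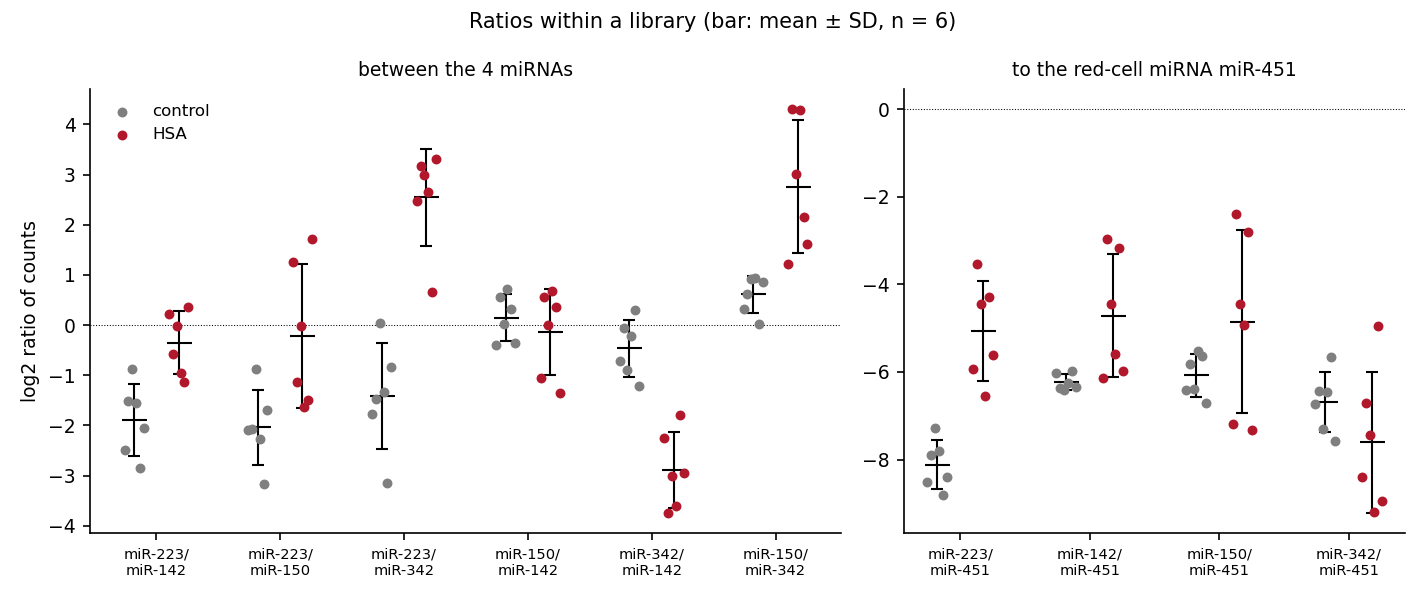
Log2 ratio of counts within each library, between the 4 miRNAs (left) and of each to miR-451 (right), with 1 point per library, gray for control and red for HSA, and the mean ± SD of 6 libraries. The ratios miR-223/miR-342, miR-342/miR-142, miR-150/miR-342 and miR-223/miR-451 do not overlap between the groups.

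Across the 6 tumors, miR-150 and miR-142 followed each other most closely. On log2 CPM their Pearson r was 0.93 (exact permutation p = 0.0194, adjusted over the 6 pairs of members 0.117) and their Spearman rho 0.94 (exact permutation p = 0.0167, adjusted 0.100). Without HSA replicates 1 and 6, the 2 farthest from the median of miR-150, r was 0.96 over 4 tumors. MiR-223 and miR-142 had an r of 0.79 (exact permutation p = 0.0681, adjusted 0.142) and a rho of 0.77 (exact permutation p = 0.103, adjusted 0.308), and miR-223 and miR-150 an r of 0.52 (exact permutation p = 0.278, adjusted 0.333) and a rho of 0.60 (exact permutation p = 0.242, adjusted 0.362). Without HSA replicates 1 and 5 these r were 0.59 and 0.48 over 4 tumors. MiR-150 and miR-342 had an r of 0.81 (exact permutation p = 0.0708, adjusted 0.142), which was -0.33 without HSA replicates 1 and 6 and so rests on them. MiR-342 had an r of 0.64 with miR-142 (exact permutation p = 0.228, adjusted 0.333), which was -0.10 without the same 2 tumors, and of 0.22 with miR-223 (exact permutation p = 0.690, adjusted 0.690). The last value rested on HSA replicate 5, since r was 0.85 without it and 0.80 over 4 tumors without HSA replicates 1 and 5. At an adjusted p of 0.05 no pair passed, 0 of 6, except miR-150 and miR-142 when libraries were scaled by size only (r = 0.95, exact permutation p = 0.00139, adjusted 0.00833). Both miRNAs of a pair share each library's scaling factor.

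Among all tested miRNAs, those most like each member were found by Pearson r over the 12 libraries after the group means were removed, given here as a description. For miR-142 these were miR-150 (r = 0.84), miR-146a (r = 0.83) and miR-155 (r = 0.82), the last 2 being miRNAs of activated immune cells. MiR-150 was closest to miR-502 and miR-155, both with r = 0.86, and miR-146a, also with r = 0.86. MiR-223 had other neighbors, miR-144 (r = 0.85), miR-371 (r = 0.80) and miR-363 (r = 0.75), of which miR-144 is a red-cell miRNA. Its r with miR-142 was 0.67, at place 6, and with miR-150 0.42, at place 34 of the other miRNAs. MiR-342 was closest to miR-1301 (r = 0.77), miR-203 and miR-2387, both with r = 0.74, and its r with miR-223 was -0.15.

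The wider leukocyte list held 16 other miRNAs with known roles in immune cells or their precursors. Of these 7 were called higher, beside 18.7% of all tested miRNAs, 0 lower, beside 7.11%, and 9 were not called. The median log2 fold change was 0.98, beside 0.34 over all tested miRNAs. The summed level did not rise in every tumor, at 9774 to 11103 CPM in control and 7571 to 17297 CPM in HSA. Its medians were 10225 and 10824 CPM. Most of the control sum came from miR-92a, miR-16 and miR-181a, with control means of 4124, 2986 and 1833 CPM. None of these was called, so the sum says little about the called miRNAs of the list. HSA replicates 1, 5 and 6 were below every control library in this sum, and HSA replicates 2, 3 and 4 above. MiR-146a and miR-146b, which dampen NF-kB signaling, rose by log2 fold changes of 2.63 and 2.76 (adjusted p = 0.00112 and 0.000965). MiR-155, needed for lymphocyte and macrophage responses, rose by 2.27 (adjusted p = 0.00915). That call was marginal, made in 4 of 10 ways of processing the same 12 libraries, with an adjusted p up to 0.0142. It was above every control library in 4 of the 6 tumors. From the miR-17-92 cluster, which drives growth of lymphocyte precursors and of many tumors, miR-18a, miR-19a, miR-19b and miR-20a rose by 1.56, 1.32, 1.39 and 1.06 (adjusted p = 0.00156, 0.000935, 0.00363 and 0.00156). MiR-20a was called in 6 of the 10, with a lowest log2 fold change of 0.97. The same cluster's miR-92a had a log2 fold change of -0.30 (adjusted p = 0.316), which was -0.40 to 0.29 over the 10, and miR-17 one of 1.34 (adjusted p = 0.0404), at 5 to 31 counts in control. The 4 miRNAs of the miR-181 family, known from lymphocyte development, were not called, with log2 fold changes from -0.06 to 0.25, and miR-181a and miR-181b changed sign among the 10. Reads of closely related family members may be counted on either. Over the 10 ways, 5 to 7 miRNAs of the list were called, and with 1 library left out 4 to 7, with 4 without HSA replicate 1 and 4 without HSA replicate 4. Without HSA replicate 4 the list's median was 0.60. In the 12 fits that left out 1 library, miR-146a, miR-146b and miR-18a kept their calls, while miR-19a lost its call in 1, miR-20a in 3, miR-19b in 5 and miR-155 in 9.

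Markers of other cells were read from lists of the same kind. Their counts stand beside 18.7% of all tested miRNAs called higher and 7.11% called lower. Of 4 red-cell miRNAs 1 was called higher, miR-144, and 1 lower, miR-486-3p, and the summed level was 22298 to 31727 CPM in control and 6042 to 47677 CPM in HSA. Most of the control sum was miR-486, with a control mean of 19182 CPM. As miR-486 is also expressed in heart muscle, the sum is not a measure of red cells alone. Of 3 endothelial miRNAs, miR-221 was called higher and miR-126 and miR-222 were not called, with summed levels of 3247 to 4958 CPM in control and 2808 to 6296 CPM in HSA. MiR-222 had a log2 fold change of 0.95 (adjusted p = 0.00271 in edgeR's test) and missed only the fold threshold. It was above every control library in 5 of the 6 tumors. Most of the control sum was miR-126, with a control mean of 2972 CPM. With 1 library left out the calls of miR-144 and miR-221 were lost in 8 and 7 of 12 fits, both when any of control replicates 1, 4 and 5 and HSA replicates 1 to 4 was missing, and that of miR-144 also when control replicate 2 was. Of the 8 muscle and the 4 mesenchymal miRNAs 0 were called by edgeR and 0 by DESeq2, which tested 7 of the muscle miRNAs, without miR-208a. At an unadjusted p below 0.05 in edgeR they counted 1, miR-208b, and 0. The mesenchymal sum was 62593 to 93465 CPM in control and 30330 to 128806 CPM in HSA. Of 7 epithelial miRNAs 3 passed the filter and 2, miR-200c and miR-203, were called higher. In control miR-200c had only 4 to 31 counts and miR-203 50 to 102. Entries with enough reads in HSA alone can pass the filter, so these calls are description only. In HSA miR-200c had a median of 22.9 CPM and a highest level of 1569 CPM, and miR-203 had 158 and 1310 CPM. The call of miR-200c was lost without control replicate 1, 2, 4, 5 or 6.

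**Figure D5:**
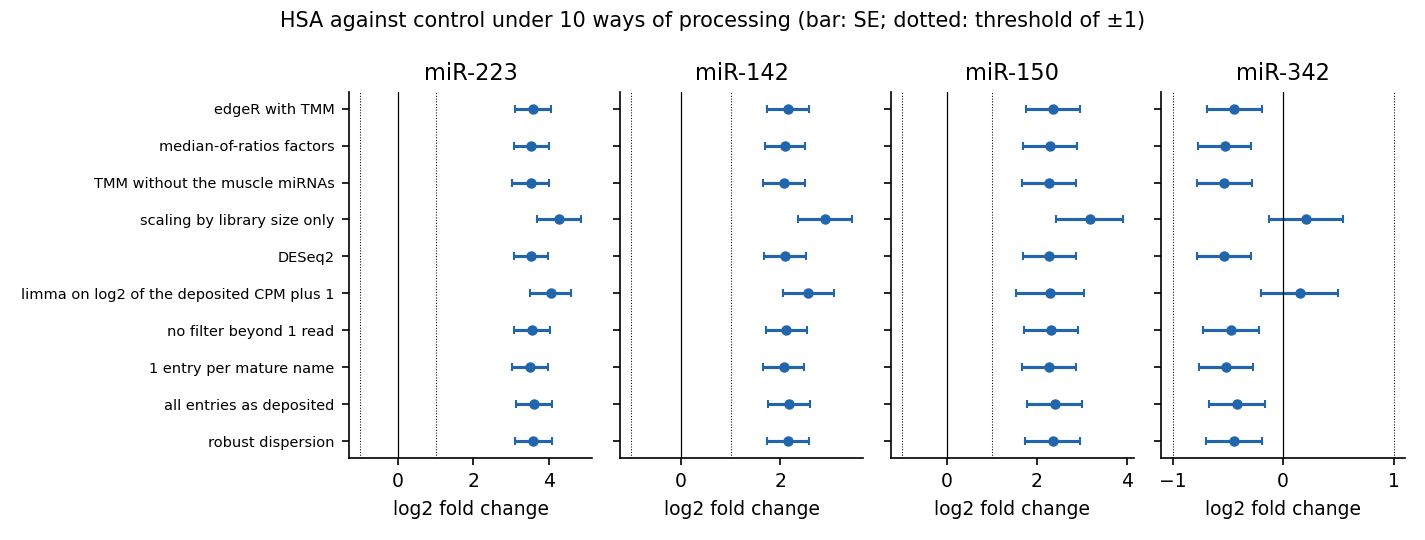
Log2 fold change of HSA against control for the 4 miRNAs under 10 ways of processing, with bars of 1 standard error, a solid line at 0 and dotted lines at the fold threshold. MiR-223, miR-142 and miR-150 stay above 1 throughout, between 2.07 and 4.27, while miR-342 lies from -0.53 to 0.21 and changes sign.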

How the data were processed

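Small RNA of cardiac FFPE tissue was measured in 6 HSA and 6 control libraries. The authors trimmed reads with Cutadapt, discarded short ones, aligned them to CanFam3.1 with Bowtie, annotated miRBase miRNAs and counted with HTSeq. The authors deposited 2 tables, of raw counts and of CPM, with an entry for each precursor of a mature miRNA. The CPM are relative to the total of all entries, without a composition factor. Recomputing the CPM gave a largest difference of 0.00499. The labels name a QIAseq kit for these libraries and the methods a NEXTflex kit, and counting errors cover counting only. Of 517 entries, those identical in mature name and counts were merged to 474, of which 244 entries, for 225 mature miRNAs, passed edgeR's filter on low counts. The quasi-likelihood test of edgeR 4.0.16 in R 4.3.3 used TMM factors of 0.769 to 0.889 in control and 0.948 to 1.97 in HSA. Standard errors were derived from the F statistic and the fitted log2 difference. Alternatives were DESeq2 1.42.0, limma 3.58.1 on log2 of the deposited CPM plus 1, other scalings, filters and entries, a robust dispersion, a replicate term and each library left out. Ratios and correlations used Python 3.11.15 and scipy 1.17.1, and log2 CPM for correlations had a prior count of 0.5. The fits were also run on simulated counts with the same spread in both groups and as many rises as falls. These data have neither, so that run does not show how the fits handle them.

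The members and lists were chosen with earlier results of these data known. MiRNAs are named when they are members, on a list, or among the 3 most like a member. Replicate numbers follow the titles. Same-numbered dogs are different dogs, and their libraries' deviations from the group means had correlations from -0.26 to 0.01. The highest correlation between 2 libraries of a group was 0.990, and none was merged with another. Gene names come from an annotation of a different assembly, so coordinates are left out. Mature sequences are not given here.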

Additional observations from a re-analysis of the deposited data

Results flagged for a closer look

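In HSA replicate 5 the log2 ratio of miR-223 to miR-342 was 0.66, far below the other 5 tumors, whose values ran from 2.47 to 3.32. Its gap to the nearest tumor was 0.681 of the whole range, above Dixon's critical value of 0.625 for 6 libraries. This library also had the lowest miR-223, miR-451 and sum of the red-cell list, which includes miR-486, of the 6 tumors and the highest summed epithelial miRNAs. Their part in the low ratio was not tested. Of the 28 groups of values checked, this was the only one with such a library, and chance gives about 1 in 20.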

How the results depend on the processing

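MiR-223 was called under all 11 alternatives that kept every library and in all 12 fits that left 1 out, with log2 fold changes from 3.24 to 4.27. MiR-142 was called in all of these except with the replicate term, and leaving out 1 library gave 1.74 to 2.29. MiR-150 lost its call with limma (log2 fold change 2.29, adjusted p = 0.0224) and without a filter (2.31, adjusted p = 0.0104), and leaving out 1 library gave 1.78 to 2.57. MiR-342 was never called, and its sign reversed with scaling by library size only (0.21) and with limma (0.15). These 2 scalings moved the median over all tested miRNAs by 0.63 and 0.40 (log2). Leaving out 1 library gave 24 to 65 called miRNAs, against 58. The log2 ratio differences were 1.43 to 2.10 for miR-223 to miR-150 and -1.45 to -0.60 for miR-342 to miR-451 with 1 library left out, and adding 1 count in place of 0.5 changed no call. The correlation of miR-150 and miR-142 was 0.95 with scaling by library size only (exact permutation p = 0.00139, the smallest that 720 pairings can give, adjusted 0.00833). Where no cause is given, the cause was not tested.

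The replicate numbers do not pair the dogs. As a replicate block they left 6 called miRNAs, with 1 of the members and 0 of the 16 other leukocyte miRNAs, and log2 fold changes of 1.97 for miR-142 (adjusted p = 0.0313) and 1.73 for miR-150 (adjusted p = 0.0723). None of the HSA libraries, 0 of 6, correlated best with its own number. Sign flips of the same-numbered differences in the ratios (1.54, 1.82, 3.96, -2.43, 2.15, 3.05 and, for miR-142 to miR-451, 1.51) allow no p under 0.0312, and the lowest adjusted value was 0.0521.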

Other observations

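The 4 miRNAs of red cells did not move together. MiR-144 had medians of 31.4 CPM in control and 126 CPM in HSA. Its rise of 1.77 on the log2 scale passed edgeR's test (adjusted p = 0.00469, standard error 0.41), though in 8 of the 12 fits with 1 library left out it was not called (adjusted p up to 0.0252), and it was above every control library in 5 of the 6 tumors. MiR-451, made from the same cluster, had medians of 7731 and 12919 CPM. MiR-486 and miR-486-3p were lower in all 6 tumors than in any control heart, with medians of 19287 and 7021 CPM and of 1667 and 231 CPM. Their log2 fold changes were -1.33 (adjusted p = 0.0205, not called) and -2.75 (adjusted p = 0.000935). MiR-486 is also expressed in heart and skeletal muscle from an intron of ANK1.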
